A study of Homo sapiens with 4 samples.

Results

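Many human microRNAs lie inside the introns of protein-coding genes and are transcribed as part of the host gene's own precursor RNA. The 42 genes described here were listed by name as coding hosts of that kind, with earlier results of these data known. A microRNA hairpin was found inside 36 of them in the RefSeq table used here. Of the 42, 37 had a probe set on the arrays, out of 15870 named genes. Each of the 37 had 1 probe set. The other 5, CHM, SLIT3, GABRE, HNRNPK and AOPEP, were not analysed here. Expression was measured in MDA-MB-231 cells, an established human breast carcinoma line of mesenchymal character, on 4 arrays of total RNA. On 2 of them the cells carried the construct labelled shDROSHA, a short hairpin RNA against DROSHA, and on 2 they carried the control labelled shNC. The submitters' design text speaks of mock transfection for the control, so whether it carried a hairpin is not settled by the labels. Replicates are called biological. No agent or time is given, and neither is a statement on whether the knockdown line was a clone or a pool, so the results concern this 1 line.

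DROSHA is the nuclear ribonuclease of the Microprocessor. It cuts the hairpin of a primary microRNA out of the nascent transcript, after which the hairpin is exported and DICER1 releases the mature microRNA. For an intronic microRNA the same RNA can yield the hairpin and, from its spliced exons, the host mRNA, and cutting within an intron is known to be compatible with splicing of the flanking exons. The comparison of shDROSHA with shNC cells asks whether host mRNA levels differ when DROSHA is reduced. The arrays report the mRNA of the hosts and not the microRNAs, and in RNA of a whole culture a change in every cell and a larger change in some cells cannot be told apart.

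Sequences of the hosted microRNAs show which hosts carry related products. They were read from RefSeq (build GRCh38.p14), whose table placed 67 hairpins inside 36 of the 42 genes. Of these, 56 lay on the host's strand, 9 on the opposite strand and 2 in CTDSPL and ARRB1, whose strand was not listed. The members without a listed hairpin were PTK2, HNRNPK, LPP, ATAD2, FAM13B and SEPTIN2. The 111 mature microRNAs listed for these hairpins had 100 distinct seeds, the stretch from base 2 to base 8 that pairs with target mRNAs. Some hairpins had a single mature arm listed, and MIR151B and MIR4748 had none. The sequences below come from the hosts that passed the test and from their relatives, written 5′ to 3′ with the seed in capitals.
miR-335-5p, in MEST: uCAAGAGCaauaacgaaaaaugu
miR-26a-5p, in CTDSPL and CTDSP2: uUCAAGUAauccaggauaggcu
miR-26b-5p, in CTDSP1: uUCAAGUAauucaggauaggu
miR-103a-3p, in PANK2 and PANK3: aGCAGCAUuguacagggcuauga
miR-107, in PANK1: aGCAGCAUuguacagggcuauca
miR-301a-3p, in SKA2: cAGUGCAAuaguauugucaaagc
miR-454-3p, in SKA2: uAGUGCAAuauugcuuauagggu
miR-191-5p, in DALRD3: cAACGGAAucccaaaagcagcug

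In the CTDSP genes 1 seed is spread over 3 hosts, and in the PANK genes another, while SKA2 holds 2 microRNAs with a common seed of their own. CTDSPL and CTDSP2 even give the same mature miR-26a-5p from different hairpins. These hairpins are shown as an example of 1 product from 2 hosts, of which 1 passed the test. The same holds for miR-103a-3p, from PANK3 and PANK2. Capitals mark the mature arms.
MIR26A1, in CTDSPL, chr3:37969404-37969480, plus strand: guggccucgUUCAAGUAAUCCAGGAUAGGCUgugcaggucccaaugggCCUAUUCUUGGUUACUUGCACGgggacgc
MIR26A2, in CTDSP2, chr12:57824609-57824692, minus strand: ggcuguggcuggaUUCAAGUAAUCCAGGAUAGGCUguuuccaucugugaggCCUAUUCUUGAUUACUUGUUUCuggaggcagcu

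The knockdown was visible in the targeted mRNA. DROSHA had log2 signals of 8.71 and 8.74 in shDROSHA cells, against 9.66 and 9.76 in shNC cells. Both knockdown arrays lay below both controls, a difference of -0.99 (SE 0.073, adjusted p = 3.89e-06). All p-values for genes come from limma with a prior variance that follows signal level, adjusted over all 18603 probe sets by the Benjamini-Hochberg method. SEs are from the same fit, and a gene passed at an adjusted p under 0.05. Array medians were 7.21 and 7.21 in shDROSHA cells and 7.25 and 7.24 in shNC cells. With each array centred on its median, the median of all differences was 0.03, against 0.001 as deposited, and 62.5% of all calls were higher, against 48.7% as deposited. Of the line's markers, VIM, CD44, CAV1, AXL and MSN lay between 9.49 and 11.86 in shDROSHA cells and between 9.45 and 12.09 in shNC cells. The luminal and epithelial genes EPCAM, ESR1 and GATA3 were between 6.02 and 7.20 in shDROSHA cells and between 6.06 and 7.11 in shNC cells. Markers of immune, endothelial and stromal cells (PTPRC, CD3E, PECAM1, COL1A1 and DCN) lay between 4.43 and 7.27 in shDROSHA cells and between 4.21 and 7.24 in shNC cells. None of these 8 dimmer markers passed, and CDH1, PGR and LUM, listed with them, had no values. Among the brighter markers AXL rose by 0.33, while CAV1 (-0.23) and MSN (-0.22) fell, and their part in the results was not tested.

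Of the 37 measured hosts, 5 rose, 1 fell and 31 did not pass. The 5 were SEPTIN2, MEST, CTDSPL, PANK3 and SKA2, and the 1 was DALRD3. Differences were small, from -0.37 to 0.49 on the log2 scale, with a median of 0.03 against 0.001 for all probe sets. With arrays centred on their medians the hosts' median was 0.07, against 0.03 for all probe sets. Over all probe sets 1192 passed (6.41%), 581 higher (3.12%) and 611 lower (3.28%). The hosts' share was 16.2%. Calls followed signal. When all probe sets were split by signal into 5 equal bins, dim to bright, 0.833%, 1.94%, 4.7%, 8.92% and 15.6% of the bins passed. All 6 called hosts lay in the brightest bins, 3 of 11 hosts in the fourth and 3 of 13 in the fifth, and 0 of the 13 hosts in the lower bins passed. At an unadjusted p under 0.05 there were 10 of the 37 hosts, against 19.3% of all probe sets. All 10 lay in the upper bins too, 4 of 11 hosts in the fourth and 6 of 13 in the fifth. Of all probe sets, 966 of 3720 in the fourth bin and 1412 of 3721 in the fifth reached that level. With 1 constant prior variance for all probe sets 0 hosts passed, the lowest adjusted p being 0.183 for SEPTIN2. There 8 of the 37 hosts had an unadjusted p under 0.05, against 14.9% of all probe sets. That setting called 1 of all 18603 probe sets (0.00538%).

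**Figure D1:**
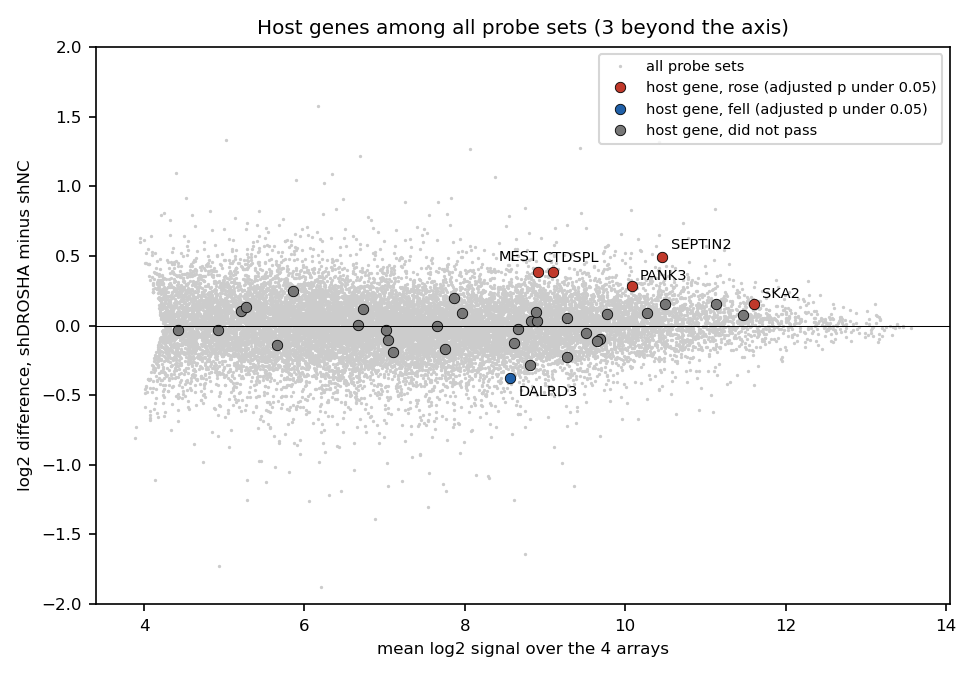
Mean log2 signal over the 4 arrays (horizontal) against the log2 difference of shDROSHA minus shNC (vertical) for all 18603 probe sets (small grey points) and the 37 hosts (large points, coloured by the limma call). The 6 named hosts that passed lie on the bright side of the cloud, where its spread is narrow.

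The groups' arrays did not overlap for 21 of the 37 hosts, 13 with both shDROSHA arrays above both shNC arrays and 8 with both below. Among all probe sets 47.8% did not overlap, 23.4% above and 24.4% below. With 2 arrays a group, an exact two-sided permutation test of 1 gene cannot give a p below 0.333, so all calls rest on spread pooled over probe sets. The number of arrays limits the precision.

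SEPTIN2 showed the largest difference among the hosts. It encodes a septin, a GTPase that assembles into filaments at the cleavage furrow and the base of cilia. Its log2 signals were 10.64 and 10.78 in shDROSHA cells, against 10.16 and 10.27 in shNC cells. The lower knockdown array stood 0.37 above the higher control array. It rose 1.41-fold (log2 difference 0.49, SE 0.062, adjusted p = 0.00036). The difference stayed between 0.42 and 0.56 when any 1 array was left out.

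MEST, an imprinted gene for a protein of the alpha/beta hydrolase fold, had 9.39 and 9.20 in shDROSHA cells, against 8.82 and 8.99 in shNC cells. All knockdown values were above all control values, and the replicates lay 0.18 apart in shDROSHA cells and 0.17 apart in shNC cells. It rose 1.31-fold (log2 difference 0.39, SE 0.087, adjusted p = 0.0156). The MIR335 hairpin lies on the same strand at 49% of the gene's length, and its mature product is the first of the sequences above. Without shNC replicate 1 the difference was 0.30 and did not pass (adjusted p = 0.146).

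Of the small CTD phosphatases 1 rose, 0 fell and 2 did not pass. These enzymes, encoded by CTDSPL, CTDSP1 and CTDSP2, remove phosphate from the tail of RNA polymerase II and are known as co-repressors of neuronal genes in non-neuronal cells. CTDSPL had 9.03 and 9.18 in shDROSHA cells, against 8.78 and 8.67 in shNC cells. It rose 1.30-fold (log2 difference 0.38, SE 0.084, adjusted p = 0.0138), with a difference of 0.33 that did not pass without shNC replicate 2 (adjusted p = 0.0891). CTDSP2 had 9.14 and 9.18 in shDROSHA cells, against 9.40 and 9.37 in shNC cells. Both of its knockdown arrays lay below both controls, and the difference of -0.23 did not pass (SE 0.07, adjusted p = 0.0734), although it did once probe sets dimmer than the median were removed (adjusted p = 0.0457). CTDSP1 had 7.60 and 7.70 in shDROSHA cells, against 7.56 and 7.74 in shNC cells, and the groups overlapped fully (log2 difference -0.001, SE 0.113). Read within each array, the difference of CTDSPL from CTDSP2 shifted by 0.61 between the groups, without overlap, at an exact two-sided permutation p of 0.333, the smallest possible here, so a difference between these hosts is not shown.

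The pantothenate kinases catalyse the first step of coenzyme A synthesis and host miR-103a and miR-107. PANK3 had 10.17 and 10.28 in shDROSHA cells, against 9.97 and 9.92 in shNC cells. It rose 1.22-fold (log2 difference 0.28, SE 0.062, adjusted p = 0.0141). The call was lost without shDROSHA replicate 2 (difference 0.22, adjusted p = 0.0548) and without shNC replicate 2 (0.26, adjusted p = 0.0797). PANK2 had 9.82 and 9.81 in shDROSHA cells, against 9.68 and 9.78 in shNC cells. Its groups did not overlap, but the gap was narrow and the difference of 0.09 did not pass (SE 0.065, adjusted p = 0.533). PANK1 had 6.95 and 7.05 in shDROSHA cells, against 7.09 and 7.31 in shNC cells, a difference of -0.19 that did not pass (SE 0.131, adjusted p = 0.476). PANK3 and PANK2 carry the same mature miR-103a-3p. The within-array difference of PANK3 from PANK1 shifted by 0.48, and that of PANK3 from PANK2 by 0.20, both without overlap and both at the exact two-sided permutation p of 0.333. The same reading gave shifts of 0.19 for COPZ1 from COPZ2 (exact permutation p = 0.667) and 0.02 for DNM2 from DNM3 (exact permutation p = 1.0), both with overlap.

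**Figure D2:**
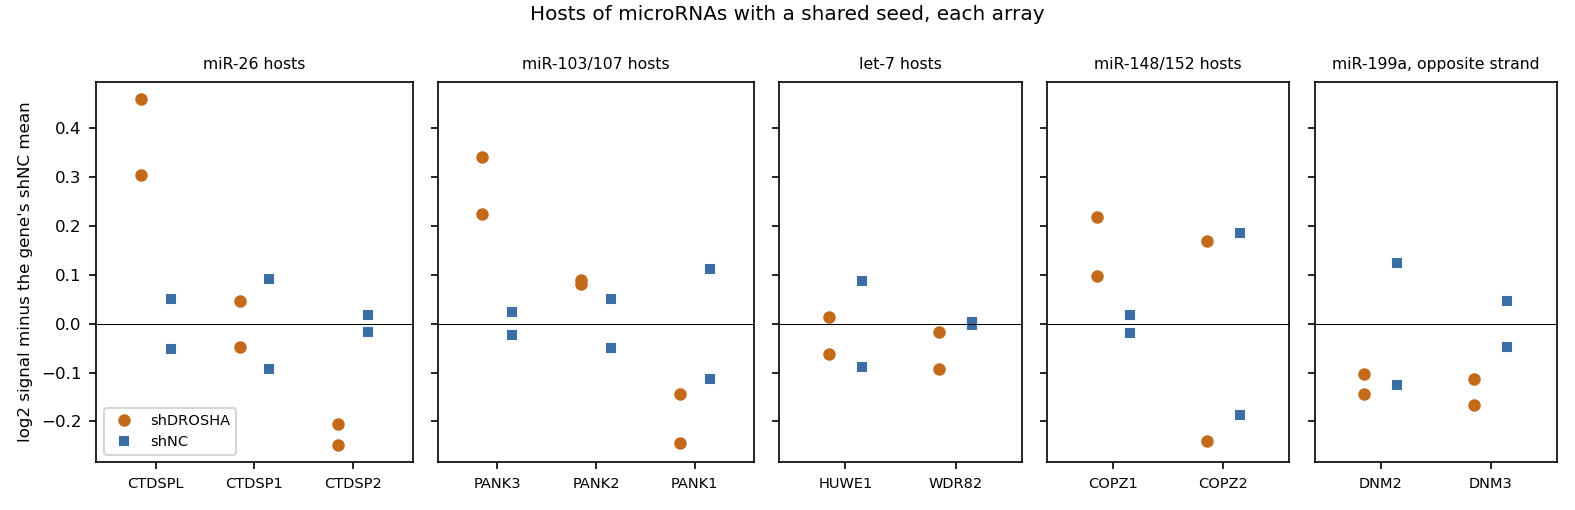
Log2 signal of each array minus the gene's own shNC mean (vertical), shDROSHA arrays as circles and shNC arrays as squares, for hosts of microRNAs that share a seed and for DNM2 and DNM3, in which miR-199a lies on the opposite strand. CTDSPL, PANK3, PANK2 and COPZ1 have both shDROSHA arrays above both shNC arrays, and CTDSP2, PANK1, WDR82 and DNM3 have both below. CTDSP1, HUWE1, COPZ2 and DNM2 overlap.

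The hosts that act in replication and division were all higher, and 1 of 4 passed. In the brightest bin, where these 4 lie, 15.6% of all probe sets passed. SKA2, a subunit of the complex that couples kinetochores to spindle microtubules, had 11.70 and 11.67 in shDROSHA cells, against 11.53 and 11.53 in shNC cells. It rose 1.11-fold (log2 difference 0.15, SE 0.042, adjusted p = 0.0413), a small difference between tight pairs. The call was lost without shDROSHA replicate 1 (0.14, adjusted p = 0.102), without shNC replicate 1 (0.16, adjusted p = 0.183), without shNC replicate 2 (0.15, adjusted p = 0.171) and with the arrays quantile-normalized again (0.13, adjusted p = 0.0673). MCM7, a subunit of the replicative helicase and host of miR-106b and miR-25, had 11.20 and 11.22 in shDROSHA cells, against 11.00 and 11.11 in shNC cells. Its difference equalled that of SKA2 at 0.15, but it did not pass (SE 0.05, adjusted p = 0.0882). SMC4, the condensin subunit that hosts miR-15b and miR-16-2, had 11.48 and 11.54 in shDROSHA cells, against 11.43 and 11.44 in shNC cells. That difference, 0.08 (SE 0.044), did not pass either, nor did the 0.09 (SE 0.056) of ATAD2, a chromatin-binding ATPase. In all 4 genes both shDROSHA arrays lay above both shNC arrays, as they did for 36.9% of all probe sets in the brightest bin, where these 4 lie.

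DALRD3 was the only 1 of the 37 hosts to fall. It encodes a tRNA-binding protein needed for a methyl mark on arginine tRNAs and holds the hairpins of miR-425 and miR-191, at 21.1% and 13.2% of its length. Its log2 signals were 8.52 and 8.24 in shDROSHA cells, against 8.81 and 8.69 in shNC cells. The knockdown arrays differed from each other by more than the higher of them differed from the lower control. It fell 1.30-fold (log2 difference -0.37, SE 0.101, adjusted p = 0.0408). The call was lost without shDROSHA replicate 2 (difference -0.24, adjusted p = 0.195), without shNC replicate 1 (-0.32, adjusted p = 0.248), without shNC replicate 2 (-0.43, adjusted p = 0.0589) and with arrays centred on their medians (-0.34, adjusted p = 0.0615).

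**Figure D3:**
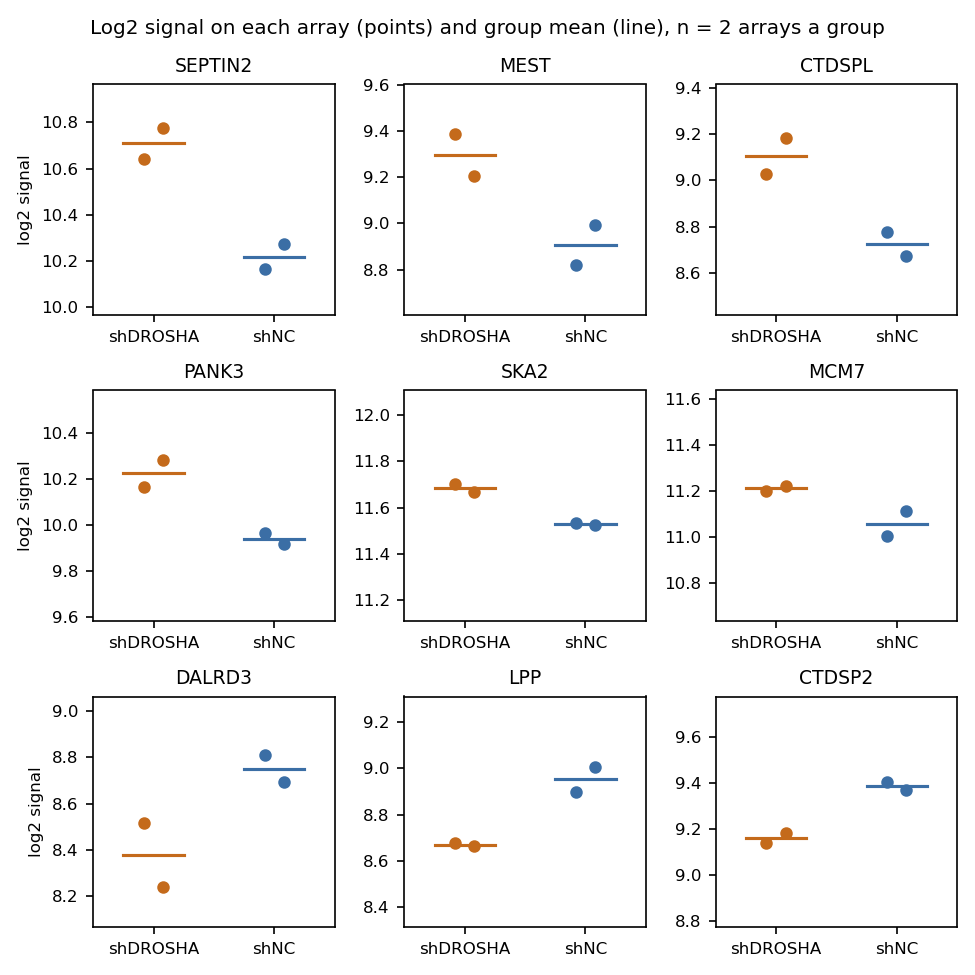
Log2 signal of 9 hosts on each array (points) with the group mean (line), shDROSHA left and shNC right, each panel spanning 1 log2 unit. The 6 hosts that passed are SEPTIN2, MEST, CTDSPL, PANK3, SKA2 and DALRD3, and MCM7, LPP and CTDSP2 are the 3 with an adjusted p between 0.05 and 0.10.

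Adhesion and cytoskeletal hosts held the largest rise and, among hosts that did not pass, the most negative difference. LPP, a LIM-domain protein of focal adhesions, had 8.68 and 8.66 in shDROSHA cells, against 8.90 and 9.01 in shNC cells. Its groups were well apart and its difference of -0.28 lay just outside the threshold (SE 0.08, adjusted p = 0.0527). It passed without the probe sets below the lower quartile of signal (adjusted p = 0.044) and below the median (0.0329), and without shDROSHA replicate 1 (0.0434). PTK2, the focal adhesion kinase, differed by 0.20 (SE 0.128), with replicates 0.29 apart in shDROSHA cells and 0.31 apart in shNC cells. EVL, which promotes actin filament growth, differed by -0.11 (SE 0.127), and TLN2, a talin that links integrins to actin, by -0.03 (SE 0.133). Of these 5 hosts SEPTIN2 rose, 0 fell and 4 did not pass.

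Of the vesicle coat and trafficking hosts 0 of 5 passed. COPZ1, a zeta subunit of the COPI coat and host of miR-148b, had 10.52 and 10.64 in shDROSHA cells, against 10.44 and 10.40 in shNC cells. Its difference of 0.16 did not pass (SE 0.057, adjusted p = 0.13), though it did without shDROSHA replicate 1, where it was 0.22. COPZ2, the other zeta subunit and host of miR-152, had 4.61 and 4.20 in shDROSHA cells, against 4.26 and 4.63 in shNC cells. These values were near the low end of the arrays and overlapped, so no difference was detectable at this signal. The dynamins, GTPases that pinch off endocytic vesicles, hold the hairpins of miR-199a on the opposite strand. DNM2 had 8.53 and 8.57 in shDROSHA cells, against 8.80 and 8.55 in shNC cells, which overlapped (log2 difference -0.12, SE 0.095). DNM3 had 5.61 and 5.56 in shDROSHA cells, against 5.77 and 5.68 in shNC cells, without overlap but with a difference of -0.14 inside its error (SE 0.166). Both hold same-strand hairpins as well, MIR3120 in DNM3 and MIR638 among those in DNM2. ARRB1, the beta-arrestin that desensitises G protein-coupled receptors, differed by -0.10 (SE 0.07).

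The let-7 hosts did not pass. HUWE1, a large ubiquitin ligase with the hairpins of let-7f-2 and miR-98, had 8.69 and 8.61 in shDROSHA cells, against 8.58 and 8.76 in shNC cells, and the groups overlapped (log2 difference -0.02, SE 0.089). WDR82, a subunit of histone H3 lysine 4 methyltransferase complexes and host of let-7g, had 9.53 and 9.45 in shDROSHA cells. The shNC values, 9.55 and 9.54, lay narrowly above both (log2 difference -0.05, SE 0.067). Their microRNAs share a seed, as the mature sequences show.
let-7f-5p, in HUWE1: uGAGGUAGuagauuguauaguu
miR-98-5p, in HUWE1: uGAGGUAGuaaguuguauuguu
let-7g-5p, in WDR82: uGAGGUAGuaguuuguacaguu

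Of the other 13 hosts, from the secreted, channel, nuclear and remaining roles, 0 passed. The secreted and surface hosts were SLIT2, the ligand of Robo receptors (0.11, SE 0.209), EGFL7, a secreted endothelial protein (0.03, SE 0.085), GPC1, a glypican (0.005, SE 0.162), and ASTN1, a neuronal adhesion protein (-0.03, SE 0.185). In all 4 the groups overlapped. SLIT2 had 5.25 and 5.27 in shDROSHA cells, against 4.85 and 5.46 in shNC cells, so its controls alone spanned 0.61. The channel hosts were dim and higher without overlap, and did not pass. TRPM3, a cation channel, differed by 0.25 (SE 0.16, adjusted p = 0.443), and CLCN5, an endosomal chloride-proton exchanger, by 0.13 (SE 0.174, adjusted p = 0.762). Both shDROSHA arrays lay above both shNC arrays for 19.2% of all probe sets in the dimmest bin, which holds CLCN5. In the next bin, which holds TRPM3, the share was 19%. Among nuclear and RNA-binding hosts 0 of 5 passed, with differences from -0.05 for WDR82 to 0.12 for PPARGC1B, a transcriptional coactivator of oxidative metabolism. Between these lay NFYC, a subunit of the CCAAT-binding factor (0.06, SE 0.081), RCL1, which acts in ribosomal RNA processing (0.09, SE 0.101), and ZRANB2, a splicing factor (0.03, SE 0.078). RNF130, a ubiquitin ligase, differed by -0.11 (SE 0.071), AATK, a kinase of neuronal cells, by -0.17 (SE 0.136), and FAM13B by 0.09 (SE 0.082).

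**Figure D4:**
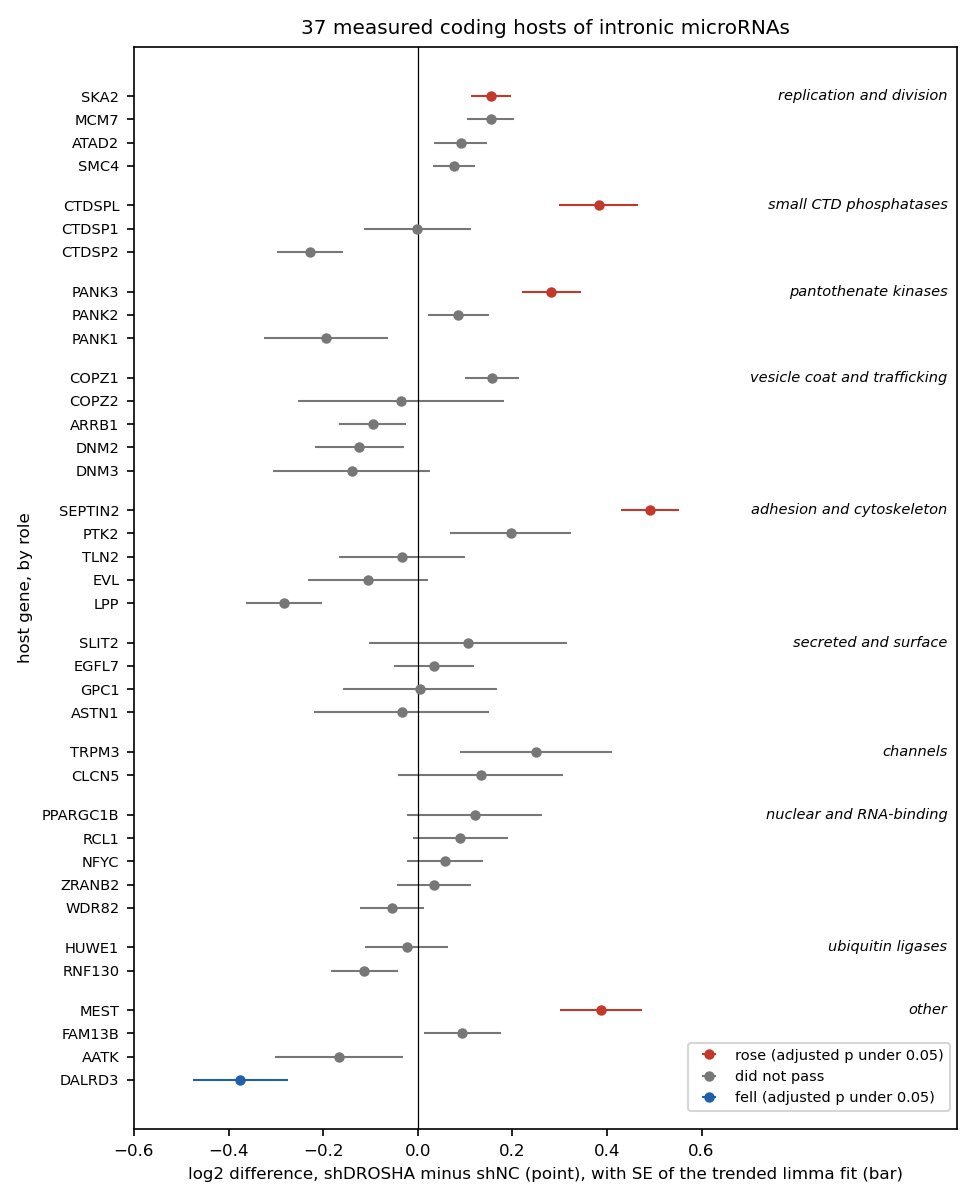
Log2 difference of shDROSHA minus shNC (points) with the SE of the limma fit (bars) for the 37 hosts, grouped by role. The replication and division hosts all lie right of 0, whereas the CTD phosphatases, the pantothenate kinases and the adhesion group lie on both sides.

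For comparison, all other coding genes with a RefSeq hairpin on the same strand within their span were taken from the same table, which gave 417 measured genes. Whether each of their hairpins lay in an intron was not checked. Of these, 5 rose, 18 fell and 394 did not pass. Their median difference was -0.04. The share that passed was 5.52%, beside 6.41% of all probe sets. Centred on array medians, 5 rose, 12 fell and the median was -0.01. The 3 that rose with the smallest p were GALNT1, which starts mucin-type O-glycosylation (log2 difference 0.47, SE 0.081), TUFT1, a tuftelin (0.57, SE 0.099), and UGCG, the enzyme that makes glucosylceramide (0.38, SE 0.072). GALNT1 had 9.30 and 9.27 in shDROSHA cells, against 8.72 and 8.91 in shNC cells. The 3 that fell with the smallest p were PDE4D, a phosphodiesterase that degrades cyclic AMP (-0.46, SE 0.073), TNIK, a kinase of Wnt signalling (-1.12, SE 0.187), and ZNF385B, a zinc finger protein (-0.90, SE 0.161). TNIK had 4.97 and 4.94 in shDROSHA cells, against 6.29 and 5.86 in shNC cells, the most negative difference among the 417. Its probe set lay in the dimmest bin, where residual SD was 0.213. The 417 had to hold a listed same-strand hairpin, which 30 of the 37 did. Of those 30, 4 passed (13.3%), with a median difference of 0.02. Any difference between the listed hosts and the 417 was not tested. The probe sets of the 37 had a median log2 signal of 8.81, against 7.65 for the 417. In the brightest bin 3 of 13 listed hosts and 6 of 88 others passed, beside 15.6% of all probe sets. In the fourth bin 3 of 11 listed hosts and 11 of 113 others passed, beside 8.92% of all probe sets.

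**Figure D5:**
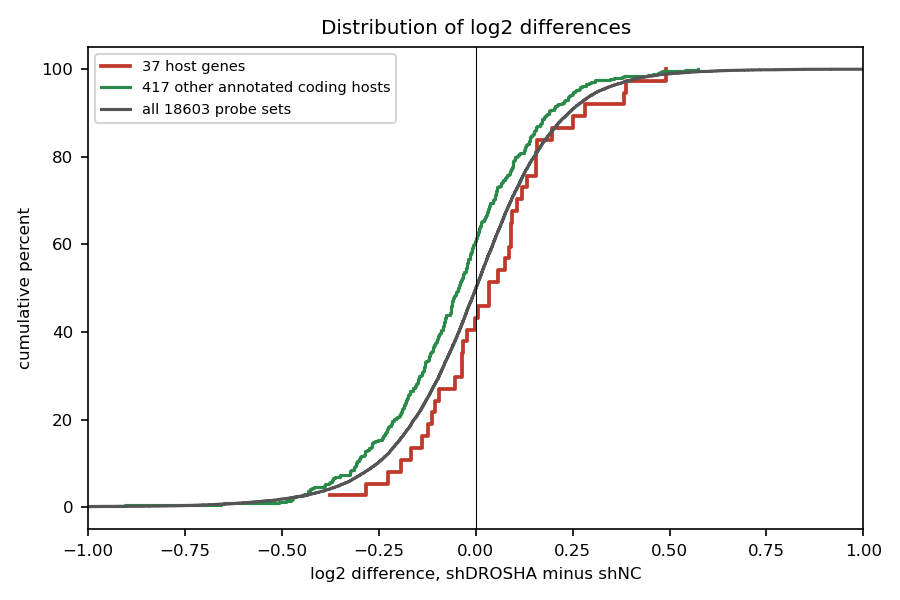
Cumulative percent of log2 differences, shDROSHA minus shNC, for the 37 hosts, the 417 other annotated coding hosts and all 18603 probe sets. The curve of the 37 lies right of the others over most of its range, with a median of 0.03, against -0.04 for the 417 and 0.001 for all probe sets.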

How the data were processed

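The authors deposited log2 signals for each probe set, made with RMA per the submitters' processing notes. This method subtracts background, equalises the arrays' distributions by quantiles and combines the probes of a set. It hides a shift common to most mRNAs and compresses differences of dim probe sets. RMA version, any filter and the genome build: not given in the sources used here. Genes were named through the platform annotation and Entrez identifiers in RefSeq GRCh38.p14.

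All 18603 probe sets were fitted with limma 3.58.1 in R 4.3.3 (lmFit, then eBayes with a trended prior of 11.9 degrees of freedom, beside 2 residual ones). The trend was chosen because residual SD fell from 0.213 in the dimmest to 0.067 in the brightest of 5 bins. The brightest probe set stood for a gene. Members, gene lists and this fit were chosen with earlier results of these data known. Array values were given for members past the threshold, for the hosts of the main microRNA families and for the 3 largest differences in each direction. Other annotated hosts were named by smallest p, 3 in each direction. P-values rest on the spread between arrays called biological replicates, largely as pooled over probe sets of similar signal. Alternatives covered prior, filter, normalization, replicate block, probe sets, threshold and left-out arrays.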

Additional observations from a re-analysis of the deposited data

How the results depend on the processing

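Of the 6 hosts called, SEPTIN2 passed in all 13 alternatives except the constant prior, where 0 of 37 hosts passed (8 at unadjusted p under 0.05 in limma, and 10 in the trended fit). The constant prior also gave 1 call over all probe sets, 0 among the other annotated hosts (65 at unadjusted p under 0.05) and an adjusted p of 0.0843 for DROSHA at -0.99. At adjusted p 0.10 there were 9 hosts, 1824 probe sets and 39 other hosts, by construction. Without 1 array, taking the remaining array of that group to be as variable as the other group, 2 to 7 hosts, 535 to 1949 probe sets and 9 to 47 other hosts were called, and DROSHA stayed between -1.04 and -0.94. The lowest host count, 2, came without shNC replicate 2, and 3 were called without shNC replicate 1. Leaving out shNC replicate 1 gave 535 probe sets and 9 other hosts, shNC replicate 2 gave 748 and 14, and shDROSHA replicate 1 gave 1949 and 47. The causes were not tested. No called host changed direction. Of the hosts that did not pass, 12 did in some setting: centred on array medians, CTDSP1 was 0.032, TLN2 0.0002 and HUWE1 0.0095, and quantile-normalized again CTDSP1 was 0.038. Without 1 array, CTDSP1 ranged from -0.093 to 0.091, TLN2 from -0.13 to 0.062, ASTN1 from -0.12 to 0.051, ZRANB2 from -0.0079 to 0.076, COPZ2 from -0.24 to 0.17, EGFL7 from -0.056 to 0.12, GPC1 from -0.23 to 0.24, HUWE1 from -0.11 to 0.065, DNM2 from -0.25 to 0.0014, SLIT2 from -0.20 to 0.41, NFYC from -0.049 to 0.16 and AATK from -0.35 to 0.018. A replicate block gave 7 hosts and 1391 probe sets, the added host being LPP (adjusted p = 0.047). Without probe sets below the median signal 8 of the 26 hosts left were called, LPP and CTDSP2 being the additions. The deviations of same-numbered arrays correlated at -0.022 over probe sets, so the numbers were not taken as pairs. Low signal limits what can be seen: residual SD was 0.213 in the dimmest bin, which held 4 of the hosts.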
